A study of Sus scrofa with 8 samples.

Results

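CCR2, LGALS1, CD14, CD163 and LYZ are 5 genes that monocytes of the blood express. They were followed in whole blood of miniature pigs fed shochu distilled water (SDW). The genes were chosen by their measured difference between the diets, to set CCR2 and LGALS1 beside CD14, CD163 and LYZ, so those differences are given as a description with no test. A probe was assigned to a gene when the array file gave the gene's symbol or full name for it. This found 10 of the 43603 probes on the array: 1 for CCR2, 1 for LGALS1, 2 for CD14, 5 for CD163 and 1 for LYZ. All 5 genes have at least 1 probe well above background, of 2045 genes that could be named on the array.

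The SDW group was 4 female Clawn miniature pigs, a small breed, that ate the standard dry feed mixed with water and SDW in equal parts by weight. The control group was 4 female pigs of the same kind on the standard dry feed. Clawn is the breed per the series text, while the breed label of the samples reads conventional miniature pig. All 8 animals were 8 to 9 months old, and shochu is a Japanese distilled spirit; no label says what SDW contains. Blood was kept in PAXgene tubes, which preserve RNA, and each animal gave 1 array read in 1 colour (Cy3). How long the diets lasted is given in 2 ways: the series text says 12 weeks, and the descriptions say 14 weeks for replicate 1, 15 for replicate 2, 16 for replicate 3 and 17 for replicate 4, in both diets. Nothing in the labels says how animals were assigned to the diets.

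Monocytes are phagocytes that leave the bone marrow, circulate, and enter tissue, where they become macrophages. CCR2 is the chemokine receptor that classical monocytes use to leave the marrow and to follow CCL2 into inflamed tissue. Galectin-1, the product of LGALS1, is a small lectin that binds galactose-containing sugars on cell surfaces and is made by many cell types, activated leukocytes among them. CD14 carries bacterial endotoxin to the TLR4 receptor, CD163 takes up complexes of haemoglobin and haptoglobin, and lysozyme, encoded by LYZ, cleaves bacterial cell walls. In pig blood CD14 and CD163 separate monocyte subsets, and lysozyme is also made by neutrophils. None of the 5 transcripts belongs to monocytes alone.

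Each level below is what a DNA probe of 60 bases caught, so the probes are what the values refer to. The probes of LGALS1 and CD14 are shown whole, and those of CCR2, CD163 and LYZ by their initial 30 bases, 5′ to 3′. The number after the gene is the base of the transcript at which the probe starts, per the array files.
LGALS1 635: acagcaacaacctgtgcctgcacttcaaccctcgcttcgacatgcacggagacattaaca
CCR2 2136: attgttcacatgcttcttaggcctcatcct
CD14 536: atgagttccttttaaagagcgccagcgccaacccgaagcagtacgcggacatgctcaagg
CD14 1296: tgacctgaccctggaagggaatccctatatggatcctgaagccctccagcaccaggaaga
CD163 3336: ggaaaatgggaattataacctggtgagttc
LYZ 474: actgtaactgtgcagttttccttcttcagc
The base composition of the probes differed, from 35.0% G and C for CCR2 and 36.7% for LYZ to 51.7% for LGALS1 and 55.0% for both CD14 probes. No other probe on the array shared a run of 20 bases in the same orientation with any of the 10. The CD163 probes that start at 3513 and 3541 overlap by 32 bases, of which the initial 30 are shown because the probes differ there at a single base, in capitals.
CD163 3513, shared stretch: ctaaaAaatagattggtgaatgtgactact
CD163 3541, shared stretch: ctaaaGaatagattggtgaatgtgactact
That substitution is A34G, counted from 1 at the 5′ end of the probe that starts at 3513.

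The arrays of the diets covered much the same range of brightness. The 75th percentile of the spot signal ran from 39.9 to 73.1 in SDW animals and from 41.2 to 58.6 in controls, and the share of probes well above background from 38.0% to 43.6% in SDW animals and from 35.2% to 42.3% in controls. No spot was saturated. The arrays lay on 3 slides, each with both diets: SDW 2, SDW 3 and control 3 on slide 1, SDW 1, control 2 and control 4 on slide 2, and SDW 4 and control 1 on slide 3. Slide 3 was scanned on another day than the others. Levels are given as log2 of the spot signal minus log2 of the 75th percentile of the same array, so a level of 0 is the brightness of that percentile. Whole blood was labelled unsorted. Well above background on all 8 arrays were FCGR3A and TYROBP, which monocytes share with other leukocytes. So were genes of neutrophils (MMP9), T cells (CD3D) and platelets (SELP). None of 11 genes of red cells, the haemoglobins among them, could be matched to a named probe.

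CCR2 was higher in every SDW animal than in any control. Its level was 2.70, 2.63, 3.10 and 2.31 in SDW animals 1 to 4, against 1.63, 2.02, 1.98 and 1.59 in controls 1 to 4. SDW 3 was the highest animal and SDW 4 the lowest of its diet, yet SDW 4 still stood above control 2, the highest control. The mean was 2.69 ± 0.32 in SDW animals and 1.80 ± 0.23 in controls (SD, n = 4 each), a log2 difference of 0.88 (standard error 0.24), or 1.84-fold. The difference was larger than the spread among the animals of either diet. Before scaling, the CCR2 spot signal was 397, 453, 344 and 198 in SDW animals and 171, 206, 162 and 176 in controls. There SDW 4 lay below control 2. SDW 4 thus lay above control 2 only after each array was scaled; its array was the dimmest of the 8, with a 75th percentile of 39.9.

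LGALS1 showed the same arrangement of the animals. Its level was 6.98, 7.43, 6.96 and 6.46 in SDW animals 1 to 4, against 5.81, 6.11, 6.08 and 6.04 in controls 1 to 4. The controls lay close together, with a range narrower than the gap between SDW 4 and control 2, while the SDW animals were spread more widely. The mean was 6.96 ± 0.40 in SDW animals and 6.01 ± 0.13 in controls (SD, n = 4 each), a log2 difference of 0.95 (standard error 0.25), or 1.93-fold. The unscaled LGALS1 signal was 7684, 12616, 4999 and 3515 in SDW animals and 3105, 3500, 2780 and 3843 in controls. SDW 4 again fell among the controls before scaling, between control 2 and control 4, and SDW 2 was the brightest animal.

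In whole blood, fewer cells of a type and less RNA per cell cannot be told apart, and this holds for every level given here. Over all 17357 probes that were well above background on at least 4 arrays, every SDW animal lay above every control for 104 probes, or 0.599%, and below every control for 67 probes, or 0.386%. Of the 5 genes CCR2 and LGALS1 lay above and none lay below, but nothing can be read from that count, since the genes were chosen for it. A difference at least as large as that of CCR2 was held by 1.83% of the probes, and one at least as large as that of LGALS1 by 1.41%. The limma test across all probes called 0 of them, or 0%, at an adjusted p under 0.05, and 251, or 1.45%, at an unadjusted p under 0.05, of which 161 (0.928%) were higher and 90 (0.519%) lower in SDW animals.

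**Figure D1:**
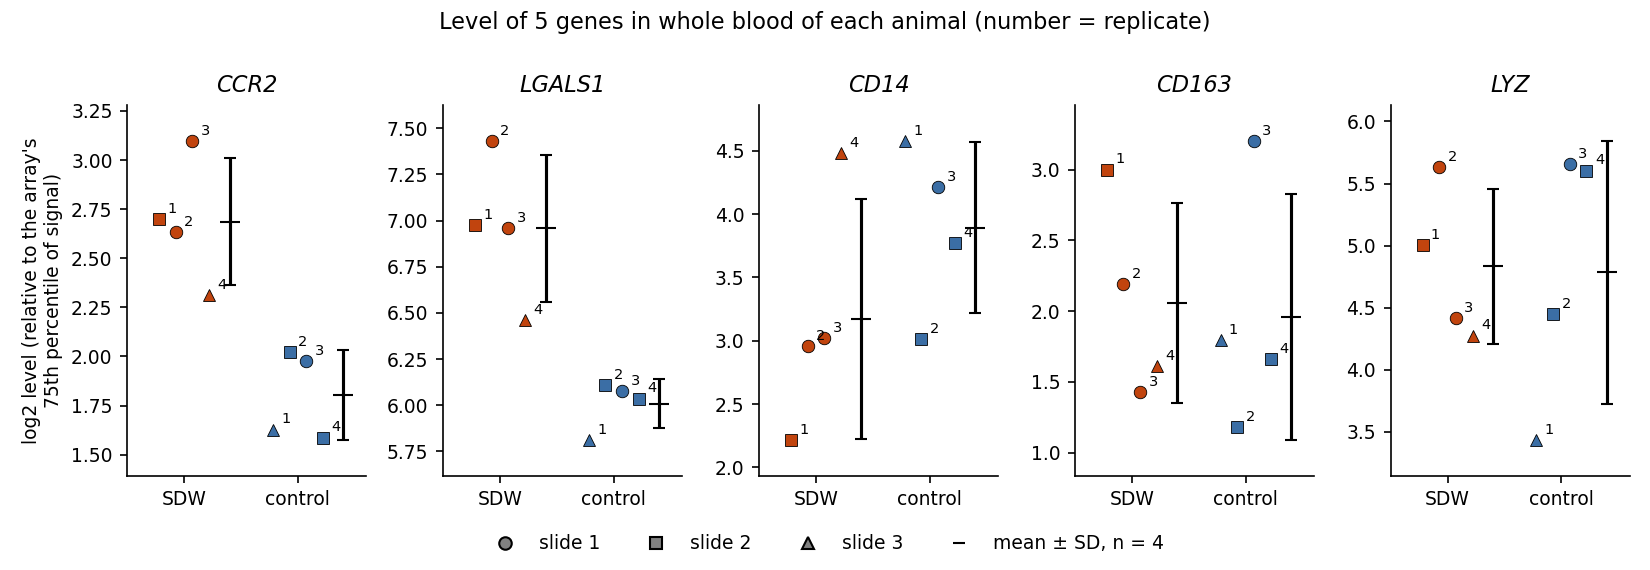
Level of each gene in each animal, as log2 signal relative to the 75th percentile of the array, with SDW animals (orange) left of controls (blue); numbers are replicates, symbols are slides, bars are mean ± SD of 4 animals, and each panel has its own axis, which does not start at 0. CCR2 and LGALS1 do not overlap between the diets, with SDW 4 nearest to the controls at 2.31 and 6.46, while the diets overlap for CD14, CD163 and LYZ.

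CD14 averaged lower in SDW animals, but the diets overlapped and the animals of 1 diet differed by more than the diets did. The level of the brighter probe, at base 1296, was 2.22, 2.96, 3.02 and 4.48 in SDW animals 1 to 4, against 4.58, 3.01, 4.21 and 3.77 in controls 1 to 4. SDW 1 and SDW 2 lay below every control, SDW 3 lay just above control 2, and SDW 4 was the highest animal of its diet by a wide margin. The mean was 3.17 ± 0.95 in SDW animals and 3.89 ± 0.67 in controls (SD, n = 4 each), a log2 difference of -0.73 (standard error 0.49), or 0.605-fold. The difference was smaller than the SD of the SDW animals. It was -1.16 without SDW 4 and -0.41 without SDW 1, so single animals moved it by more than 1.5 times.

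The other CD14 probe, at base 536, was dimmer and well above background on 1 SDW array and 3 control arrays. Its level was -5.00, -2.88, -2.64 and 0.04 in SDW animals 1 to 4, against 0.18, -3.10, -1.65 and -1.16 in controls 1 to 4. Control 1 and SDW 4 were its highest animals, as for the brighter probe (Pearson r of 0.963 and Spearman rho of 0.952 over the 8 arrays, values near background included). On the other 4 arrays its signal was near background, so their order and the size of a difference between the diets are not resolved by this probe.

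CD163 showed no consistent direction between the diets. The level of its brightest probe, at base 3513, was 3.00, 2.19, 1.43 and 1.61 in SDW animals 1 to 4, against 1.80, 1.18, 3.20 and 1.66 in controls 1 to 4. SDW 1 and control 3 were the high animals, control 2 and SDW 3 the low ones, and the diets overlapped over nearly their whole range. The mean was 2.06 ± 0.71 in SDW animals and 1.96 ± 0.87 in controls (SD, n = 4 each), a log2 difference of 0.10 (standard error 0.48.) With that standard error, a difference as large as that of CCR2 in either direction was not resolved from 0.

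The animal-to-animal pattern of CD163 was the same in all 3 of its probes near the 3′ end. The probe at base 3336 read 2.75, 2.11, 1.26 and 1.39 in SDW animals and 1.78, 1.31, 3.11 and 1.54 in controls. The probe at base 3541, the one that carries the A34G change, read 2.80, 2.06, 0.95 and 1.52 in SDW animals and 1.65, 1.02, 2.98 and 1.39 in controls. Pearson r between these probes was 0.982 to 0.988 over the 8 arrays, and the high readings of SDW 1 and control 3 appeared in all 3. The log2 difference between the diets was -0.06 at base 3336 and 0.07 at base 3541, with standard errors of 0.45 and 0.49. The remaining CD163 probes lie further 5′ and were dim: the one at base 1819 was well above background on 0 arrays, and the one at base 2756 on 3, namely SDW 1, SDW 2 and control 3.

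**Figure D2:**
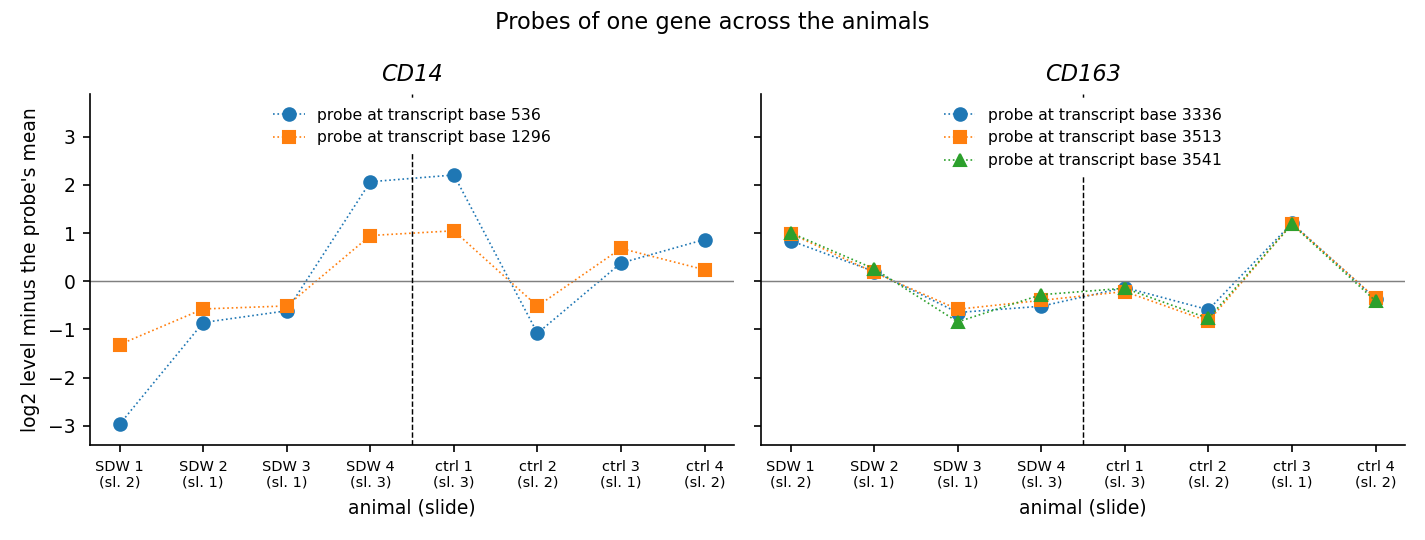
Kept probes of CD14 (left) and CD163 (right) in each animal, SDW animals left of the dashed line and controls right of it; the axis is the log2 level minus the mean of that probe, and sl. is the slide. The probes of a gene follow one another from animal to animal, with CD14 high in SDW 4 and control 1 and CD163 high in SDW 1 and control 3.

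LYZ averaged nearly the same in the diets and varied more among the controls than among the SDW animals. Its level was 5.01, 5.63, 4.41 and 4.27 in SDW animals 1 to 4, against 3.43, 4.44, 5.66 and 5.60 in controls 1 to 4. Control 1 was the lowest animal, and control 3, SDW 2 and control 4 were the highest and lay close together. The mean was 4.83 ± 0.62 in SDW animals and 4.78 ± 1.06 in controls (SD, n = 4 each), a log2 difference of 0.05 (standard error 0.51.) The unscaled LYZ signal was 1962, 3623, 856 and 773 in SDW animals and 597, 1103, 2077 and 2850 in controls, with the same animal, control 1, at the bottom. The sign of the LYZ difference changed under several settings, among them the fit with slide as a block (-0.00756) and the authors' value table (-0.00599).

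Within slides, CCR2 and LGALS1 kept their direction and the other genes did not all do so. The SDW minus control difference of CCR2 was 0.89, 0.90 and 0.68 within slides 1, 2 and 3, and that of LGALS1 was 1.12, 0.90 and 0.65. For CD14 it was -1.23 and -1.18 within slides 1 and 2, and -0.10 within slide 3. CD163 differed by -1.39 within slide 1, by 1.58 within slide 2 and by -0.18 within slide 3. For LYZ the values were -0.63, -0.02 and 0.84. Each slide holds only 1 or 2 animals of a diet, so these values have no error of their own. Since every SDW animal lay above every control for CCR2 and LGALS1, their direction within slides could not have been otherwise.

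**Figure D3:**
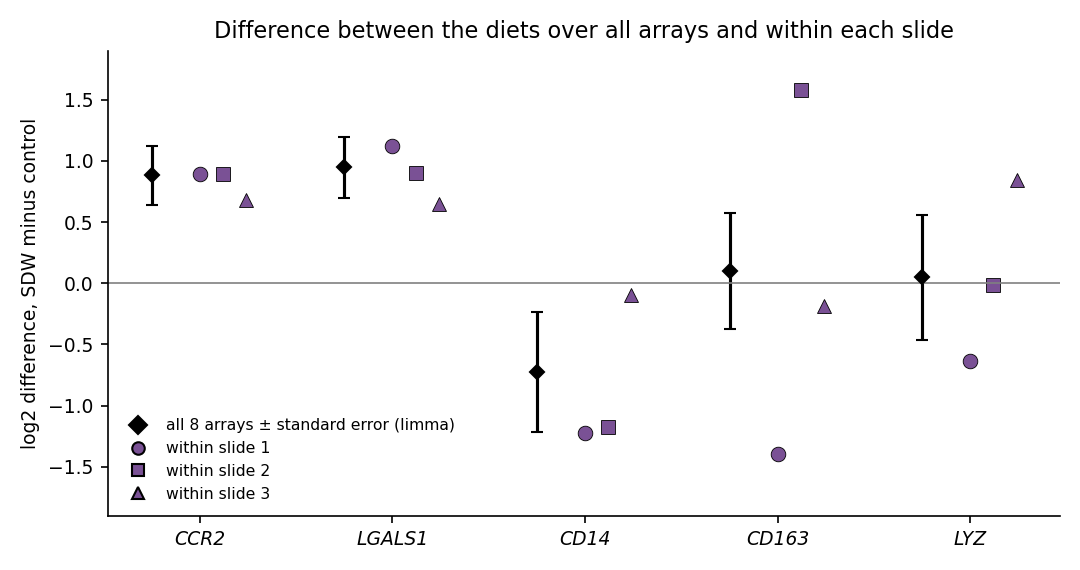
Log2 difference, SDW minus control, of each gene over all 8 arrays (black, with the standard error of the limma fit) and within each of the 3 slides (purple, no error bar). CCR2 and LGALS1 lie above 0 on every slide, from 0.65 to 1.12, CD14 lies below 0 on every slide, and CD163 and LYZ lie on both sides. For CCR2 and LGALS1 that side of 0 follows from the diets not overlapping.

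The arrays of slide 3, SDW 4 and control 1, stood at an edge of their diet for 3 of the genes. They held the highest CD14 level of each diet, the lowest LGALS1 level of each diet and the lowest LYZ level of each diet. SDW 4 was also the lowest SDW animal for CCR2. Without slide 3 the log2 difference was 0.95 for CCR2, 1.05 for LGALS1, -0.94 for CD14, 0.19 for CD163 and -0.22 for LYZ, with 3 animals a diet. With slide as a fixed block in the limma fit it was 0.84 for CCR2, 0.91 for LGALS1, -0.90 for CD14 and 0.02 for CD163. The standard errors of that fit were 0.22, 0.22, 0.28 and 0.49, so that of CD14 was smaller than the 0.49 without the block.

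To set the gene groups beside each other, each level was expressed relative to the mean of the gene over the 8 arrays and averaged within a group. The mean of CCR2 and LGALS1 was 0.47, 0.67, 0.67 and 0.02 in SDW animals 1 to 4, against -0.64, -0.30, -0.34 and -0.55 in controls 1 to 4. CCR2 and LGALS1 stood on the same side of their own means in every animal but SDW 4, where they were at 0.07 and -0.02. The mean of CD14, CD163 and LYZ ranged from -0.50 to 0.14 in SDW animals and from -0.57 to 0.91 in controls, with control 3 at the top, where all 3 genes were high. No SDW animal had CD14, CD163 and LYZ all above their means.

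The gap between the groups of genes, CCR2 and LGALS1 minus the other 3, was 0.52, 0.52, 1.16 and 0.02 in SDW animals 1 to 4, against -0.46, 0.27, -1.25 and -0.78 in controls 1 to 4. Control 2 lay above SDW 4, so the diets overlapped in this gap, although its mean was 0.55 ± 0.47 in SDW animals and -0.55 ± 0.64 in controls (SD, n = 4 each). The difference between the diets was 1.11. It was 2.09 within slide 1, 0.77 within slide 2 and 0.48 within slide 3. The choice of genes sets the direction of this gap, and it is given as a description.

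**Figure D4:**
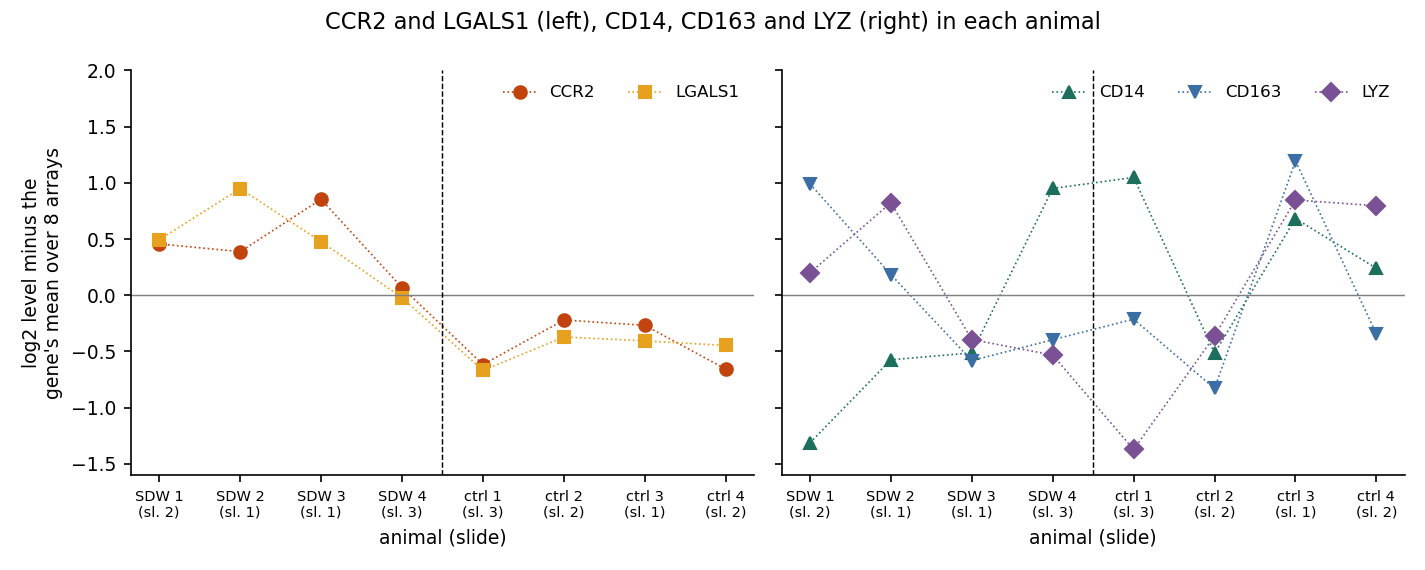
Log2 level minus the mean of the gene over the 8 arrays, for CCR2 and LGALS1 (left) and CD14, CD163 and LYZ (right), with SDW animals left of the dashed line and controls right of it; sl. is the slide, and the dotted lines only join points of one gene. CCR2 and LGALS1 sit below 0 in all 4 controls and, but for LGALS1 at -0.02 in SDW 4, above 0 in the SDW animals, whereas CD14, CD163 and LYZ each order the animals differently.

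No other measured gene of the list for monocytes differed upward by as much as CCR2 and LGALS1, by the probe read for each gene. In either direction, 1.83% of all probes differed by as much as CCR2 and 1.41% by as much as LGALS1. Both were chosen for their difference, so nothing can be read from the lack of such a gene in a short list. Of 41 further genes that monocytes express, not all of them in monocytes alone, 19 were measured. Over all probes, 52.9% had a higher and 47.1% a lower mean in SDW animals. Of the 19 genes, 5 had a higher and 14 a lower mean. None passed the limma test at an adjusted p under 0.05 in either direction, and none had an unadjusted p under 0.05. Their median log2 difference was -0.12, against 0.02 over all probes, and the range was -0.45 to 0.23. AIF1, at 0.21 by its brighter probe, differed by 0.56 by its other kept probe. Leaving out slide 3, control 1 or SDW 1 brought the count of lower means to 11. The score of these genes, their mean level relative to each gene's own mean, ran from -0.22 to 0.10 in SDW animals and from -0.10 to 0.20 in controls, and the diets overlapped.

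The brightest of these monocyte genes lay close to 0 between the diets. CST3, the protease inhibitor cystatin C, was at 10.28 ± 0.60 in SDW animals and 10.34 ± 0.18 in controls, and FCGR3A, the CD16 receptor for antibodies that marks non-classical monocytes in humans and NK cells, at 8.64 ± 0.37 in SDW animals and 8.77 ± 0.28 in controls (SD, n = 4 each). TYROBP, the signalling adaptor DAP12, differed by 0.04, and FCER1G, the shared gamma chain of antibody receptors, by -0.12. SIRPA, the receptor for the do-not-eat-me signal CD47, differed by -0.03. LGALS3, a galectin of macrophages, differed by 0.23 with a standard error of 0.36.

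Of the measured genes listed around CCR2, none showed the size of its difference with the same sign, a size that 1.83% of all probes reached in either direction. Of 16 genes of the CCR2 axis and of related chemokine receptors, 9 were measured, 1 with a higher and 8 with a lower mean in SDW animals, and none passed the limma test or had an unadjusted p under 0.05. The median log2 difference was -0.25. CCL2, the main ligand of CCR2, had 3 probes, all of them well above background on 0 of the 8 arrays. CCL8, another ligand, was at -0.41 ± 1.26 in SDW animals and -0.54 ± 1.16 in controls (SD, n = 4 each), a difference of 0.13 (standard error 0.69). With that standard error, a difference as large as that of CCR2 was not resolved from 0. CCL7 and CCL13 of the same list were not matched to a named probe. CCL2 and CCL8 were picked out after their values were seen.

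CCR1, a receptor for CCL3 and CCL5 on monocytes and neutrophils, was at 7.15 ± 0.69 in SDW animals and 7.38 ± 0.25 in controls, a difference of -0.24. GNAI2, the inhibitory G protein subunit through which chemokine receptors signal, differed by -0.44 with a standard error of 0.34. CCL5, a chemokine of T cells and platelets, differed by -0.17, and CCL3L1, a relative of CCL3, by -0.00.

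Of 14 galectins and galectin-binding genes, 4 were measured beside LGALS1, and none differed by as much, where 1.41% of all probes did. LGALS3 was at 6.04 ± 0.60 in SDW animals and 5.81 ± 0.52 in controls, against the difference of 0.95 for LGALS1. LGALS9, a galectin with tandem sugar-binding domains, differed by -0.06 over all arrays and by -2.18 within slide 3, and another of its probes by -0.70. LGALS4, a galectin of the gut lining, differed by 0.14 and was well above background on 3 SDW arrays and 1 control array. ITGB1, the integrin beta chain that galectin-1 can bind, differed by 0.00 with a standard error of 0.47. The median of the 4 was 0.07, with 3 higher and 1 lower mean and 0 calls at an adjusted or an unadjusted p under 0.05 in limma.

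Most measured genes that act with CD14 in sensing endotoxin had a lower mean in SDW animals, where 47.1% of all probes had one. Of these genes 0 passed the limma test at an adjusted or unadjusted p under 0.05. Of 15 such genes, 8 were measured, 2 with a higher and 6 with a lower mean. The median log2 difference was -0.20, against -0.73 for CD14 and 0.02 over all probes. LY96, the MD-2 protein that holds endotoxin on TLR4, differed by -0.16, and MYD88, the adaptor behind the Toll-like receptors, by -0.28 with a standard error of 0.59. TLR2, the receptor for bacterial lipoproteins that also uses CD14, was at 3.02 ± 0.21 in SDW animals and 3.38 ± 0.13 in controls (SD, n = 4 each), a difference of -0.36 with overlapping diets. IRAK4, the kinase that MYD88 recruits, differed by 0.10. The output genes CXCL8 and IL6, also picked out after their values were seen, were well above background on 0 of the 8 arrays.

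For CD163, the genes of haemoglobin and haem handling were followed. Of 15, 6 were measured, 2 with a higher and 4 with a lower mean in SDW animals. The median log2 difference was -0.12, and limma called 0 genes at an adjusted or unadjusted p under 0.05. FTH1 and FTL, the ferritin chains that store iron, differed by -0.12 and -0.11. HMOX1, the enzyme that breaks down haem and is induced by haemoglobin taken up through CD163, was at 3.16 ± 0.55 in SDW animals and 2.58 ± 0.82 in controls. Its difference of 0.57, with a standard error of 0.43, was 1.79 within slide 2 and below 0 within slides 1 (-0.30) and 3 (-0.14), an order of the slides that CD163 also had. ADAM17, the protease that sheds CD163 from the cell surface, differed by -0.16.

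For LYZ, lysosomal enzymes and carriers served for comparison. Of 15, 7 were measured, 4 with a higher and 3 with a lower mean in SDW animals. The median log2 difference was 0.09, and here too limma called 0 genes at an adjusted or unadjusted p under 0.05. CTSB, the protease cathepsin B, differed by 0.13. CTSH, the aminopeptidase cathepsin H, differed by -0.19. CTSD, the aspartic protease cathepsin D, was at 2.71 ± 1.36 in SDW animals and 3.22 ± 1.04 in controls (SD, n = 4 each), and its animals were spread more widely than those of LYZ within the SDW group.

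Genes of other blood cells were followed by the same measures; the labels do not give the share of each cell type in the blood. Of 12 genes listed for eosinophils and basophils 5 were measured, 4 with a higher and 1 with a lower mean in SDW animals. Against 0.02 over all probes, their median log2 difference was 0.82. Their score ran from 0.07 to 0.53 in SDW animals and from -0.57 to -0.08 in controls, so the diets did not overlap in this mean over genes. None of the 5 genes separated the diets by itself, no list score was tested, and limma called 0 of them at an adjusted or unadjusted p under 0.05. ALOX15, the lipoxygenase of eosinophils, was at 6.20 ± 0.59 in SDW animals and 5.37 ± 0.58 in controls (SD, n = 4 each), a difference of 0.82. GATA2, a transcription factor of basophils, mast cells and precursors, differed by -0.21. MS4A2 differed by 0.97, CCL24 by 0.89 and the chemokine receptor CCR3 by 0.53, with standard errors of 0.48, 0.41 and 0.38. CCL24, a ligand of CCR3 that is not a gene of these cells alone, counts in the list and its score. It differed by 2.11, 0.72 and -0.25 within slides 1, 2 and 3. MS4A2 was well above background on 4 SDW arrays and 3 control arrays. MS4A2, CCL24 and CCR3 were named after their values were seen. The defining genes EPX, PRG2, IL5RA and SIGLEC8 of eosinophils and FCER1A, HDC and CPA3 of basophils were not matched to a named probe here. The part of these cells in the levels of CCR2 and LGALS1 was not tested.

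Of 18 neutrophil genes 7 were measured, and all 7 had a lower mean in SDW animals; their median log2 difference was -0.43. Their score ran from -0.57 to 0.07 in SDW animals and from -0.17 to 0.69 in controls. ALOX5AP, the activating protein of leukotriene synthesis, was at 8.40 ± 0.33 in SDW animals and 8.82 ± 0.18 in controls, and MMP9, a granule protease, at 6.84 ± 0.52 in SDW animals and 7.08 ± 0.39 in controls (SD, n = 4 each). The defining genes CSF3R, CXCR2, FPR1 and S100A12 were not matched to a named probe here. Neutrophils express LYZ and, at a low level, CD14, and their part in the levels of these genes was not tested.

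The lists of the remaining cell types were short. Of 6 measured T cell genes 3 had a higher and 3 a lower mean in SDW animals: CD3D, a chain of the T cell receptor complex, differed by 0.26, with another of its probes at -0.86, and CD3E by -0.31. The measured NK genes, GNLY and KLRK1, differed by -0.71 and -0.57, and the platelet genes SELP and ITGA2B by 0.28 and -0.08. Of the dendritic cell genes CCR7 differed by -0.20, XCR1 by -0.48 and LY75, which was named after its value was seen, by -1.16. In all these lists and those of neutrophils and of eosinophils and basophils, limma called 0 genes at an adjusted p under 0.05, and GNLY and LY75 had an unadjusted p under 0.05. Over all probes, 1.45% had an unadjusted p under 0.05 in limma.

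**Figure D5:**
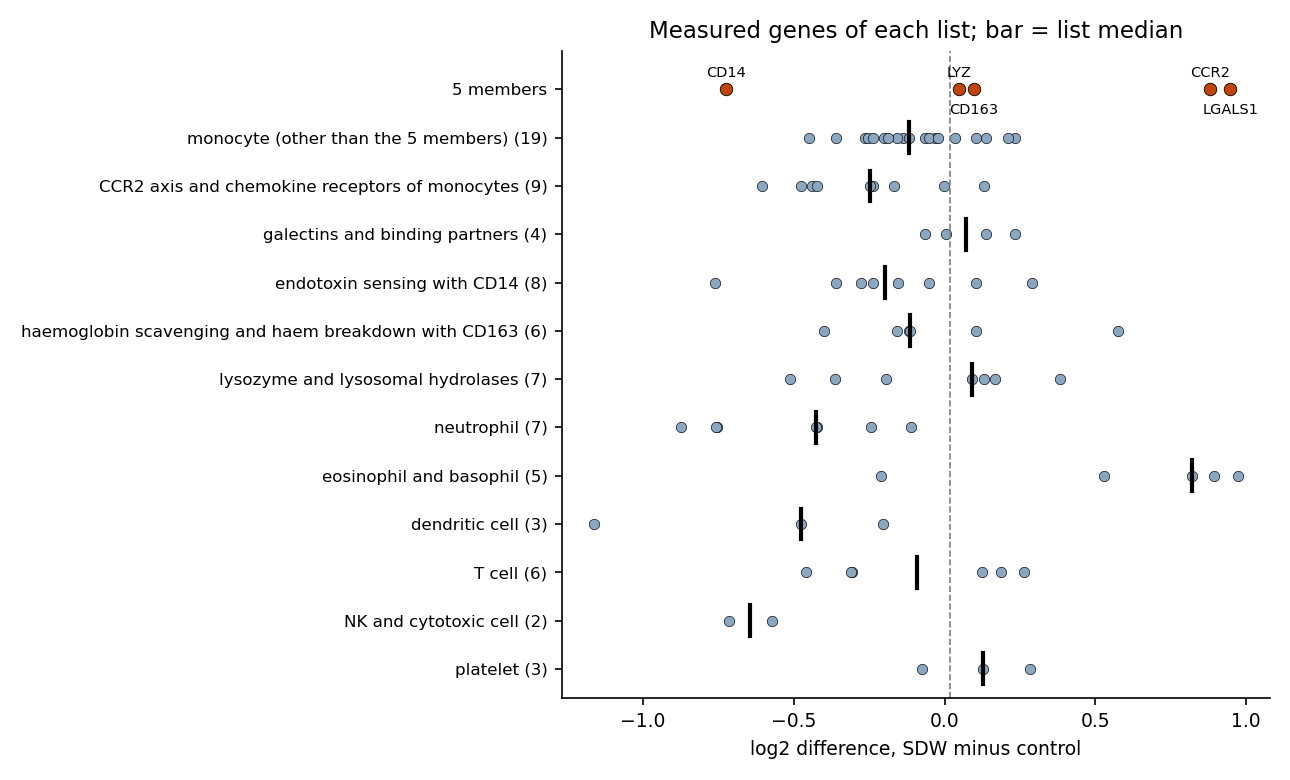
Log2 difference, SDW minus control, of CCR2, LGALS1, CD14, CD163 and LYZ (orange) and of every measured gene of each list with more than 1 measured gene (blue), with the number of genes in brackets, a bar at the list median and a dashed line at the median of all probes (0.02). The 19 other monocyte genes lie between -0.45 and 0.23, below CCR2 at 0.88 and LGALS1 at 0.95.

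Across the 8 animals, LGALS1 was among the named genes whose levels followed CCR2 most closely. Of 1146 other named genes, the highest Pearson correlations with CCR2 were those of MAPK9, a stress-activated kinase (0.907), LGALS1 (0.874) and CD34, a surface protein of blood precursors (0.846). For LGALS1 they were SCAMP1, a membrane protein of secretory vesicles (0.953), CD34 (0.941) and MSMO1, an enzyme of cholesterol synthesis (0.881). These values are a description over 8 arrays that share slides and differ in diet, so a gene that differs between the diets scores high. CCR2 and LGALS1 were both chosen for such a difference, so nothing can be read from their correlation in level. On deviations from the diet means, which leave the diet out, the closest genes to CCR2 were FADS1, a fatty acid desaturase (0.947), PREI2 (0.945) and RPL10, a ribosomal protein (0.936), and LGALS1 was not among them. The correlation of CCR2 with LGALS1 was 0.45 in this measure. The closest to LGALS1 were then SAR1A, a GTPase of transport vesicles (0.978), PLCD4, a phospholipase (0.978), and PAFAH1B1, a regulator of dynein (0.974).

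CD14, CD163 and LYZ each had different nearest genes. CD14 was followed most closely by ANGPTL4, an inhibitor of lipoprotein lipase (0.946), TAP1, the peptide transporter of antigen presentation (0.945), and LY86, the MD-1 protein that partners a Toll-like receptor relative on B cells and monocytes (0.944). LY86 stayed close on deviations from the diet means (0.962), beside SREBF1, a regulator of lipid synthesis (0.964), and AE2 (0.954). CD163 was followed by ALDH2, the mitochondrial aldehyde dehydrogenase that oxidises the acetaldehyde formed from ethanol (0.896), PLAU, the urokinase protease (0.876), and KLF5, a transcription factor (0.841). ALDH2 also led on deviations (0.913), before SEPHS2, an enzyme of selenium metabolism (0.892), and CTNNA1, a catenin (0.878).

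The nearest genes to LYZ were the same in both measures. PIGK, an enzyme that attaches lipid anchors to proteins (0.982), DLD, a subunit of mitochondrial dehydrogenases (0.971), and SRSF1, a splicing factor (0.963), followed it in level. On deviations from the diet means they stood at 0.982, 0.972 and 0.968. No gene of the monocyte lists was among the 3 nearest of any of the 5 genes in either measure. LY86, near CD14 in both measures and also found on monocytes, is not in those lists.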

How the data were processed

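Blood RNA of 4 SDW and 4 control pigs was measured, 1 array per animal. The main fit has no term for slide, so its p-values measure the spread between animals together with any effect of slide. The deposited scanner files hold linear spot intensities that were background-subtracted and not scaled between arrays. The software was Agilent Feature Extraction (10.1.1.1 per the file headers, 9.5.3.1 per the submitters' processing notes). The authors' value table, used as an alternative, holds intensities of a scaling not given in the sources used here; its direction is that of the scanner files. Its column medians ran from 5.02 to 5.14, and 7 of its 8 columns matched another replicate of the same diet, so replicate names follow the scanner files.

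Leaving out control and outlier spots, spots of a probe were averaged and expressed as log2 minus the 75th percentile of the array. Probes well above background on 4 or more of the 8 arrays were kept (17357 of 43603). The diets were set against each other with limma 3.58.1 in R 4.3.3, by lmFit and eBayes without covariates, two-sided, with p-values adjusted after Benjamini-Hochberg over the kept probes and a threshold of 0.05. The fit was tested on simulated data with independent arrays and no effect of slide, so that test could not show what slides do to the fit. Names were found for 3171 probes, from the files and a pig RefSeq gene table. A gene was read from its brightest kept probe; levels of different probes are not comparable.

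The genes and lists were chosen with earlier results of these data known. Genes named beside the 5 were the brightest 6 monocyte genes, the brightest 4 of each related list, the brightest 2 of each other cell type, and the 3 nearest by correlation; some genes set by this rule are not reported here. Alternatives covered background correction, scaling, filters, slide and replicate blocks, other probes, and leaving out arrays. The number of arrays limits precision. No genome was used, so probe positions are transcript bases.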

Additional observations from a re-analysis of the deposited data

How the results depend on the processing

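CCR2, LGALS1, CD14 and the gap between the gene groups kept their direction in all alternatives run: CCR2 from 0.64 (normexp with quantile normalization) to 1.01, LGALS1 from 0.79 to 1.11, CD14 from -1.16 to -0.41 (-1.19 with its other probe, near background on 4 arrays), and the gap from 0.88 to 1.39. CCR2 and LGALS1 did not overlap between the diets, so leaving out arrays or a fixed slide block could not have reversed their direction. With each array left out in turn, CCR2 ranged from 0.74 to 1.01, LGALS1 from 0.79 to 1.11, CD14 from -1.16 (without SDW 4) to -0.41 (without SDW 1), CD163 from -0.22 (without SDW 1) to 0.51 (without control 3), LYZ from -0.40 (without control 1) to 0.34 (without control 3), the gap from 0.88 to 1.39 and the median of the other monocyte genes from -0.20 to -0.05. LYZ changed sign with normexp and quantile normalization (-0.0310), in the authors' value table (-0.00599), with slide as a fixed block (-0.00756) and without slide 3 (-0.22), and CD163 with its other bright probe (-0.0620); the cause was not tested, and each value lies within the spread between animals. Calls over all probes at an adjusted p under 0.05 in limma stayed at 0 except without slide 3, where 1 unnamed probe passed (log2 difference 5.21, adjusted p = 2.77e-05). Probes at an unadjusted p under 0.05 numbered 251, against 162 with normexp and the 75th percentile, 269 with normexp and quantile normalization, 165 with the filter on all 8 arrays, 823 with no filter, 1145 with slide as a fixed block, 631 with it as a random block, 543 without slide 3, and 179 to 519 with an array left out. The count of eosinophil and basophil genes with a lower mean, 1, was 0 without control 1 or SDW 1, in alternatives chosen after seeing the data, as were those for the other lists. By the descriptions, same-numbered animals of the diets had the same feeding time. The correlation of their deviations was -0.17, 0.11, 0.33 and -0.38 for replicates 1 to 4. Whether replicate numbers pair the animals was not tested. With the replicate block, limma gave 0 calls and 239 probes at an unadjusted p under 0.05. The differences were then 0.88 for CCR2 and 0.95 for LGALS1.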

Other observations

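A further 5 probes are described in the array files as CD163 through a sequence entry and not through the gene's symbol or full name, so they fall outside the 10 probes above. Of these, 4 were too dim to be kept. The other, at base 1080 of its entry, read 2.31, 0.37, -0.31 and 0.68 in SDW animals 1 to 4, against 1.08, -0.70, 1.05 and -0.07 in controls 1 to 4. SDW 1 was highest, control 2 lowest, and control 3 stood beside control 1, whereas control 3 was the highest animal in the 3 bright CD163 probes. The mean was 0.76 ± 1.11 in SDW animals and 0.34 ± 0.88 in controls (SD, n = 4 each), a log2 difference of 0.42 (standard error 0.58), and the values within slides 1, 2 and 3 were -1.02, 2.70 and -0.41. The order of the slides was that of CD163.

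Several genes of the lists were on the array and dim, and these were picked out after their values were seen. VCAN, a proteoglycan of classical monocytes, MRC1, the mannose receptor of macrophages, and IRF8, a factor of monocyte and dendritic cell development, were well above background on 0 of the 8 arrays, and SERPINA1, a protease inhibitor that human monocytes make, on 1.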
